A study of Mus musculus with 6 samples.

Results

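The Rab GTPases were examined in RNA from osteoclasts, the multinucleated cells that resorb bone, of 2 mouse genotypes. The members were all transcript spots of the array whose gene name is Rab followed by a number and at most 1 letter from a to f: 59 of the 37074 gene names, with 113 of 56605 probes and 122 of 59305 spots. The control group was *Ano1*fl/fl, 3 mice in which the gene of the chloride channel Anoctamin 1 is flanked by loxP sites and left in place. The other group was *Ctsk-Cre;Ano1*fl/fl, 3 littermates with the same floxed alleles plus a Cre recombinase driven by cathepsin K, so that excision is limited to cells that switch this osteoclast gene on. Osteoclasts were grown from bone marrow with RANKL, the cytokine that drives their formation, for 5 days, and no untreated sample was part of the comparison. For osteoclast cultures in general the methods add M-CSF, which keeps the precursors alive. Each mouse gave 1 Cy3-labelled Agilent array, and the labels give neither age nor sex.

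Rab proteins are small GTPases that act as address labels on membranes. In the GTP-bound state, set by an exchange factor and ended by a GTPase-activating protein, a Rab recruits effectors such as motors, tethers and fusion factors, and in the GDP-bound state it is carried through the cytosol by GDI. A prenyl lipid added by a geranylgeranyl transferase anchors it, and SNARE proteins complete the fusion that it prepares. Osteoclasts depend on this traffic: late endosomes and secretory lysosomes that carry Rab7 fuse with the membrane facing bone to form the ruffled border, through which acid and cathepsin K are released, while degraded matrix is taken up and passed through the cell.

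The sequences below are the 250 bases upstream of a listed RefSeq start site (GRCm38.p6), written 5′ to 3′ on the strand of the gene. *Rab39b* and *Rab39* are shown because they are close relatives whose signals differed between the genotypes in opposite directions. *Rab34* is shown because it was among the members higher in *Ctsk-Cre;Ano1*fl/fl and held letters read by factors of osteoclasts; the capitals mark TGANTCA, the core bound by Fos and Jun, overlapped by CATGTG, an E-box form bound by the Mitf family.
Rab39b: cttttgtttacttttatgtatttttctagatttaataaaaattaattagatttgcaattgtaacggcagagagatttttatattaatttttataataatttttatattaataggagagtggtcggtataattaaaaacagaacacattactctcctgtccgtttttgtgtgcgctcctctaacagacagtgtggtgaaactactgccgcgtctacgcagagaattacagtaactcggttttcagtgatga
Rab39: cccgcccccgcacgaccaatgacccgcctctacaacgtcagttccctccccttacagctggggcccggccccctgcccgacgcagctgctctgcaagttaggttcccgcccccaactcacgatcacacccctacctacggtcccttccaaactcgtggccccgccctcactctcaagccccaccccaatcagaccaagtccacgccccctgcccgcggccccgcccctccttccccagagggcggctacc
Rab34: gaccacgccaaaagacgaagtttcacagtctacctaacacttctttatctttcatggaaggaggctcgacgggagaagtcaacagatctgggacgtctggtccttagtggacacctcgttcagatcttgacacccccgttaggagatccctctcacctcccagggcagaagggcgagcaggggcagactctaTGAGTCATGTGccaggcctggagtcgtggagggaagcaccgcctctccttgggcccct

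The *Rab39b* sequence lies at chrX:75578232-75578481 on the minus strand, and 31.6% of its bases are G or C, a share under which only 2.2% of the promoters of the same length fell. That of *Rab39* is at chr9:53706233-53706482, also on the minus strand, with 68.8% G or C, and 89.0% of promoters had less. The median over all promoters was 52.4%. The *Rab34* stretch, at chr11:78188177-78188426 on the plus strand, belongs to 1 of its 2 listed start sites, holds 56.4% G or C, and has TGANTCA at position -58 from the start site. Of the 59 members, 48 had a promoter in the table, *Rab1* under its current symbol *Rab1a*. Each motif was searched on both strands, and a match is a description of letters, not a binding site. TGANTCA was found in 2 of the 48 members, *Rab15* and *Rab34*, a share of 4.2%, against 7.8% of the 27025 genes and 6.7% of the 32851 promoters. CACGTG was in 5 members (*Rab20*, *Rab21*, *Rab23*, *Rab27a* and *Rab5a*), 10.4% against 6.9% of genes and 6.0% of promoters. CATGTG was in 5 as well (*Rab13*, *Rab15*, *Rab28*, *Rab34* and *Rab40b*), 10.4% against 13.8% of genes and 12.3% of promoters. In *Ctsk-Cre;Ano1*fl/fl, 2 of the 2 members with TGANTCA were higher; 3 of the 5 with CACGTG were higher and 1 lower, and of the 4 tested ones with CATGTG (*Rab40b* was not tested) 2 were higher and 1 lower. Of all tested Rab genes 50% were higher and 24.1% lower, and of all tested genes 23.4% were higher and 29% lower.

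All signals below are log2 processed signals, quantile normalized between the 6 arrays, so that 1 unit is a factor of 2, and a difference is *Ctsk-Cre;Ano1*fl/fl minus *Ano1*fl/fl. Signals of different probes are not comparable as amounts of RNA, so every comparison is between arrays for the same probe. Of 59305 transcript spots, each array read between 33480 and 34951 well above background and 0 as saturated, and the median processed signal ranged from 32.1 to 44.2. Correlations of all tested genes between arrays were 0.995 to 0.997 within a genotype and 0.947 to 0.951 between genotypes. No array read the probe for *Ano1* well above background, with signals between 3.22 and 3.91 on the linear scale against 15.0 to 18.4 for the dimmest spots that were, so it could not check the genotype labels. Directions are those of the labels; whether the labels were exchanged was not tested, and an exchange would turn the sign of every difference given here. The groups also differed in markers of cell types. Of 15 tested osteoclast markers 14 were higher in *Ctsk-Cre;Ano1*fl/fl and 1 was lower, with a median difference of 2.92, and their summed linear signal was 205686 to 221908 on the control arrays against 584451 to 661089; *Siglec15* was not well above background on any control array. The genes of the resorbing cell were among those with the higher signal under the label *Ctsk-Cre;Ano1*fl/fl: *Ctsk* by 3.17 ± 0.11, *Mmp9* by 4.36 ± 0.17 and *Acp5* by 0.84 ± 0.07. Markers of stromal cells and osteoblasts were higher for 13 of 16 and lower for 2, with sums of 23587 to 25953 against 93545 to 137783, and *Ibsp* was below background on all 6 arrays. B cell markers were higher for 6 of 7 and lower for 1. Markers of mast cells and basophils were lower for 7 of 9 and higher for 0 (sums 8697 to 10910 against 1678 to 4654), those of neutrophils lower for 8 of 12 and higher for 2 (sums 367873 to 386937 against 236791 to 289324), and those of megakaryocytes and platelets lower for 5 of 6 and higher for 0 (sums 124299 to 142131 against 53651 to 62386). The other lists gave 3 higher and 4 lower of 11 for macrophages, 3 and 2 of 7 for dendritic cells, 4 and 2 of 8 for T and NK cells, 1 and 2 of 5 for endothelial cells, and 0 and 2 of 2 for erythroid cells. The part of these cell types in the Rab differences was not tested. In such bulk RNA, fewer cells of a type and less RNA per cell cannot be told apart.

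Of the 59 Rab genes, 54 could be tested, which required that all 3 arrays of a genotype or more read the brightest probe well above background, and 50 were above it on all 6. The other 4 entered only through the genotype in which they were brighter: *Rab39b*, *Rab36* and *Rab3b* through *Ctsk-Cre;Ano1*fl/fl and *Rab26* through *Ano1*fl/fl. They had to differ, so their values are given as a description, with an adjusted p only where they did not pass under an alternative. The main counts of genes higher or lower, by role and among relatives, are followed by the count without them. The other counts over all tested Rab genes include them. With limma and Benjamini-Hochberg adjustment over the 20645 genes tested, 27 Rab genes were higher in *Ctsk-Cre;Ano1*fl/fl, 50% of those tested, where 23.4% of all tested genes were higher. A further 13 were lower, 24.1% against 29% of all genes, and 14 did not pass. Over the 50 measured on all 6 arrays, 24 were higher, 48% against 22.2% of all genes so measured, and 12 were lower, 24% against 29.5%. More than 2-fold differences were fewer: 7 Rab genes were higher (13% against 9.88% of all genes; 5 without *Rab39b* and *Rab3b*) and 3 were lower (5.56% against 7.19%). The median difference over the 54 was 0.25, against -0.059 over all genes (0.12 against -0.083 with each gene as the mean of its probes), and 44 of them (81.5%) stayed within 2-fold, as did 82.7% of all genes. The 3 signals of each genotype did not overlap for 47 of the 54, or 87%, against 64% of all genes. These 47 include *Rab39b*, *Rab36*, *Rab3b* and *Rab26*, which had to differ. Neither share was limited to genes measured on all 6 arrays. Replicates were tight, with a median SD of 0.093 on the control arrays and 0.083 on the others. The roles by which the genes are grouped below were set with earlier results of these data known, and the shares of 23.4% higher and 29% lower over all genes stand beside the counts of every role.

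**Figure D1:**
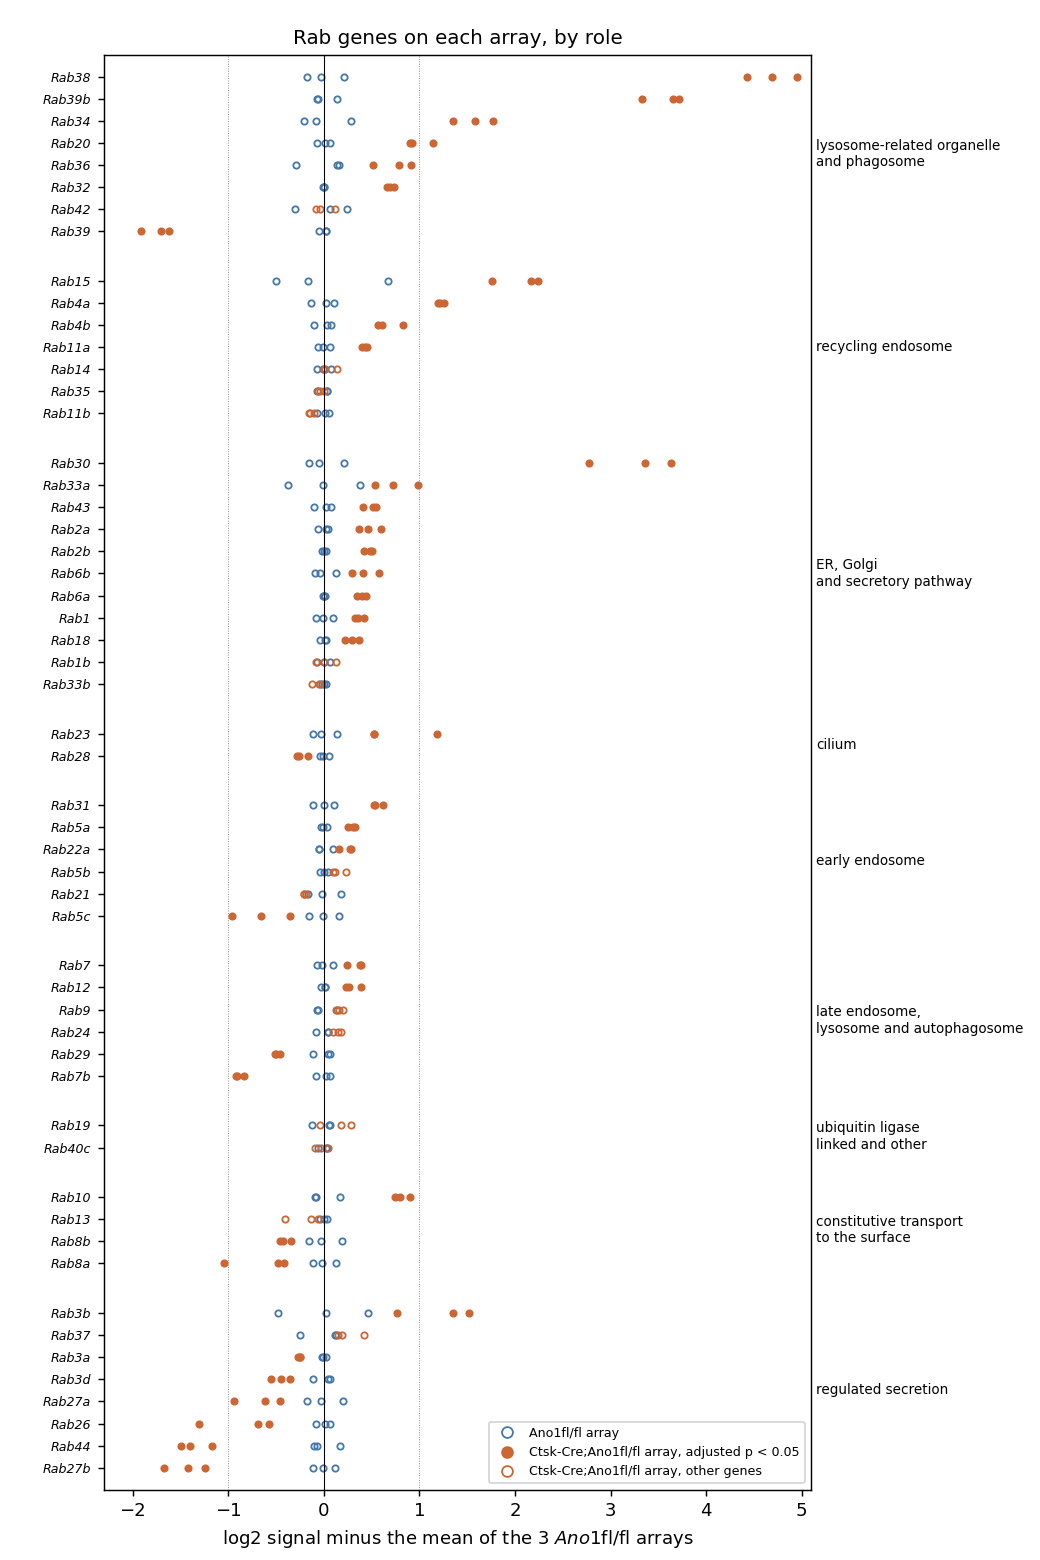
Each row is 1 of the 54 tested Rab genes, grouped by role, and each point is 1 array, plotted as its log2 signal minus the mean of the 3 *Ano1*fl/fl arrays; blue rings are *Ano1*fl/fl, orange points are *Ctsk-Cre;Ano1*fl/fl, filled where the adjusted p is under 0.05, and dotted lines mark a 2-fold difference. *Rab38* lies farthest to the right and *Rab39* farthest to the left, the control arrays of *Rab39b* and *Rab36* and the *Ctsk-Cre;Ano1*fl/fl arrays of *Rab26* were not well above background, so that these positions give only limits, the genes of the endoplasmic reticulum and Golgi are near 0 or to the right of it, and 6 of the 8 genes of regulated secretion are filled on the left.

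Of the 8 Rab genes of lysosome-related organelles and phagosomes, compartments that take up and digest material or build secretory lysosomes, 6 were higher, 1 was lower and 1 did not pass, with a median difference of 0.86; of the 6 measured on all 6 arrays 4 were higher (66.7%) and 1 lower. *Rab38*, which directs cargo to lysosome-related organelles such as melanosomes, gave 8.23, 8.38 and 8.62 in *Ano1*fl/fl and 12.84, 13.36 and 13.10 in *Ctsk-Cre;Ano1*fl/fl. All 3 arrays of the second genotype were far above the first, and the difference of 4.69 ± 0.16 (standard error, as after every ± here; n = 3 per genotype; 25.8-fold) was the largest of any tested Rab gene (limma adjusted p = 1.49e-05). Its nearest relative *Rab32*, with the same route, moved less: it gave 12.96, 12.95 and 12.96 against 13.64, 13.69 and 13.62, a difference of 0.70 ± 0.06 (limma adjusted p = 3.09e-04).

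*Rab39b*, a Rab of neurons linked to autophagy and receptor traffic, was not well above background on any *Ano1*fl/fl array, where its values were 1.96, 1.76 and 1.75. The *Ctsk-Cre;Ano1*fl/fl arrays gave 5.55, 5.16 and 5.48, all well above background. Since the low side is only a limit, the signal was at least 2.69-fold higher, measured against the dimmest clearly detected probe of each control array, and with normexp background correction the difference was 0.71. *Rab39*, which is tied to the acidification of phagosomes, went the opposite way, with 8.02, 8.02 and 7.94 in *Ano1*fl/fl and 6.29, 6.08 and 6.37 in *Ctsk-Cre;Ano1*fl/fl. The groups were well apart, and the difference of -1.75 ± 0.09 was the largest fall among tested Rab genes (limma adjusted p = 5.32e-05).

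*Rab34*, which acts in macropinocytosis, in the positioning of lysosomes and in the building of cilia, gave 11.11, 10.74 and 10.62 against 12.60, 12.41 and 12.18. The lowest *Ctsk-Cre;Ano1*fl/fl array was above the highest control array, and the difference was 1.57 ± 0.16 (limma adjusted p = 5.88e-04), or 0.78 when averaged with a second probe that was below background on all 6 arrays. Its relative *Rab36* was not well above background on any control array and reached 4.47, 4.59 and 4.20 in *Ctsk-Cre;Ano1*fl/fl, at least 1.36-fold higher; it did not pass with the values of the series matrix (adjusted p = 0.162) and its sign turned with the mean of its probes (-0.19). *Rab20*, a Rab of maturing phagosomes, was 0.99 ± 0.09 higher (limma adjusted p = 3.53e-04). *Rab42* was at 6.86 in both genotypes.

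**Figure D2:**
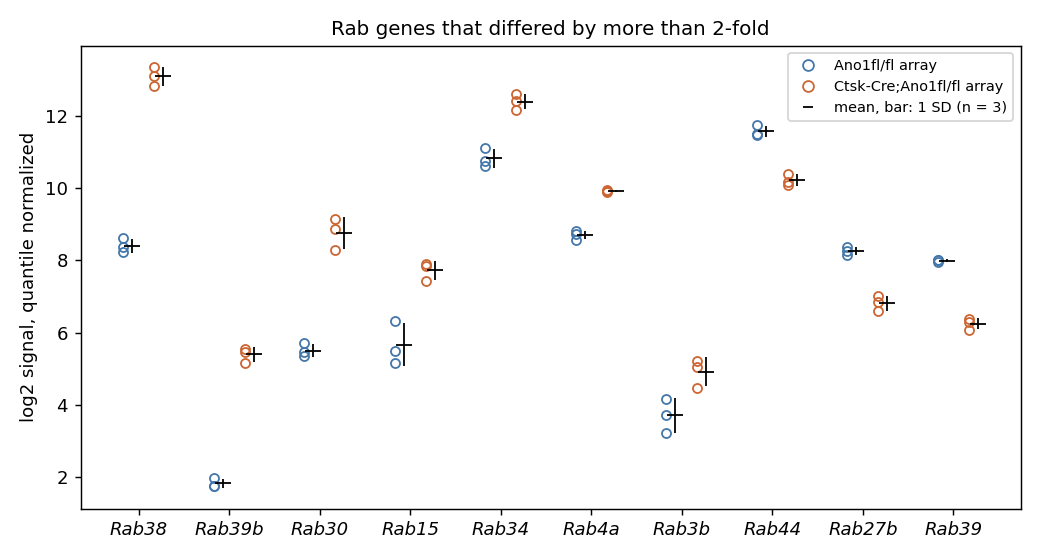
Log2 signal on each of the 6 arrays for the 10 Rab genes that differed by more than 2-fold at an adjusted p under 0.05; rings are arrays (blue *Ano1*fl/fl, orange *Ctsk-Cre;Ano1*fl/fl), and the dash and bar beside them are the mean and 1 SD of 3 arrays. The rings of the genotypes do not overlap for any of the 10, which is close to given for genes chosen by that cut. No control ring of *Rab39b* and only 1 of 3 for *Rab3b* was well above background. *Rab15* and *Rab3b* have the widest control arrays, and heights of different genes are not comparable.

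Recycling endosomes return internalised receptors to the surface, and of their 7 tested Rab genes 4 were higher and 0 lower, with a median difference of 0.43. *Rab15*, a regulator of receptor recycling, gave 6.34, 5.50 and 5.17 on the control arrays, against 7.91, 7.84 and 7.43 in *Ctsk-Cre;Ano1*fl/fl. Control replicate 1 lay above the other two without reaching the other genotype, and the difference was 2.06 ± 0.31 (limma adjusted p = 0.00235), or 1.20 with normexp background correction. *Rab4a*, the Rab of rapid recycling, was more even, with 8.73, 8.80 and 8.57 against 9.91, 9.96 and 9.90 and a difference of 1.22 ± 0.08 (limma adjusted p = 1.12e-04). Its relative *Rab4b* was 0.67 ± 0.10 higher. *Rab11a*, which marks the slow recycling compartment, gave 13.76, 13.89 and 13.81 against 14.24, 14.27 and 14.22, a difference of 0.43 ± 0.07 (limma adjusted p = 0.00272). *Rab11b*, *Rab14* and *Rab35* did not pass the test, with differences of -0.13, 0.05 and -0.036, and *Rab17* and *Rab25*, Rabs of epithelial cells, were below background on all 6 arrays.

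The Rab genes of the endoplasmic reticulum, the Golgi and the secretory pathway gave 9 higher and 0 lower of 11, with a median of 0.43 and, apart from *Rab30*, small differences. *Rab30*, a Golgi Rab, gave 5.35, 5.71 and 5.45 in *Ano1*fl/fl and 8.87, 8.28 and 9.14 in *Ctsk-Cre;Ano1*fl/fl, so the groups were far apart. Its difference was 3.26 ± 0.23, or 9.57-fold (limma adjusted p = 1.30e-04), and 2.20 with normexp background correction. *Rab1* and *Rab2a*, which work between the endoplasmic reticulum and the Golgi, were 0.37 ± 0.07 and 0.48 ± 0.08 higher, and *Rab6a*, which works at the Golgi itself, was 0.39 ± 0.06 higher. Also higher were *Rab33a* (0.75), *Rab43* (0.49), *Rab2b* (0.47), *Rab6b* (0.43) and *Rab18* (0.30). *Rab1b* (0.016) and *Rab33b* (-0.072) did not pass. With the mean of all probes in place of the brightest, *Rab1* turned sign (-0.0044, adjusted p = 0.969) and *Rab2b* (0.084, adjusted p = 0.490) and *Rab6a* (adjusted p = 0.0506) did not pass. The call was also lost for *Rab18* with 75th percentile scaling (adjusted p = 0.0892), for *Rab6b* without control replicate 2 (adjusted p = 0.0525) and for *Rab33a* without 4 of the 6 arrays, each left out alone (adjusted p up to 0.0776).

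Of the 6 early endosome Rab genes, 3 were higher, 1 was lower and 2 did not pass. *Rab5a* and *Rab5c*, whose proteins both drive fusion of early endosomes, differed in opposite directions. *Rab5a* gave 12.64, 12.66 and 12.70 against 12.92, 12.97 and 12.99, with a difference of 0.29 ± 0.06 (limma adjusted p = 0.00943). *Rab5c* gave 13.88, 13.71 and 13.56 against 12.76, 13.37 and 13.06, a difference of -0.66 ± 0.17 (limma adjusted p = 0.0190). The spread within *Ctsk-Cre;Ano1*fl/fl was wide for *Rab5c*, and it did not pass without control replicate 1 or 2 or *Ctsk-Cre;Ano1*fl/fl replicate 3 (adjusted p = 0.0616, 0.0552 and 0.0506). *Rab5a* did not pass with 75th percentile scaling in place of quantile normalization (adjusted p = 0.0616). *Rab31* (0.56) and *Rab22a* (0.24), which act between the early endosome and the Golgi or the surface, were higher, though *Rab31* did not pass with the mean of all probes (adjusted p = 0.0916) and *Rab22a* under several alternatives (adjusted p up to 0.255). *Rab5b* (0.15) and *Rab21* (-0.20) did not pass.

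On the late endosome, lysosome and autophagosome, 2 Rab genes were higher, 2 lower and 2 not called of 6 tested. *Rab7*, the Rab of late endosome fusion and of the ruffled border, gave 13.71, 13.59 and 13.54 on the control arrays and 14.01, 14.00 and 13.86 on the others. The groups were close without overlapping, and the difference was 0.34 ± 0.08, or 1.27-fold (limma adjusted p = 0.0139). *Rab12*, of the degradative route, was 0.30 ± 0.07 higher by its brightest probe, but it did not pass with 75th percentile scaling (adjusted p = 0.0657) and its sign turned with the mean of its probes (-0.17). Lower were *Rab7b*, which works between late endosomes and the trans-Golgi network, at 15.79, 15.90 and 15.94 against 14.96, 15.05 and 14.97 (difference -0.89 ± 0.07, limma adjusted p = 2.32e-04), and *Rab29*, of the trans-Golgi network, at -0.49 ± 0.08. *Rab9* (0.16), of retrieval from late endosomes, and *Rab24* (0.14), of autophagy, did not pass.

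Of 8 tested Rab genes of regulated secretion, which act on secretory granules and their release, 6 were lower, 1 was higher and 1 did not pass, with a median of -0.56. Of the 6 measured on all 6 arrays 5 were lower, 83.3% against 29.5% of all genes so measured, and 0 higher. *Rab27b*, which docks granules and exosome-bearing compartments at the membrane, gave 8.14, 8.25 and 8.38 in *Ano1*fl/fl and 6.84, 7.01 and 6.59 in *Ctsk-Cre;Ano1*fl/fl. The groups were more than 1 unit apart at their nearest arrays, and the difference was -1.44 ± 0.13 (limma adjusted p = 3.09e-04). *Rab44*, an unusually large Rab of leukocyte granules that has also been studied in osteoclasts, gave 11.48, 11.50 and 11.74 against 10.41, 10.08 and 10.18, a difference of -1.35 ± 0.12 (limma adjusted p = 3.00e-04).

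*Rab27a*, which shares effectors with *Rab27b*, gave 8.08, 8.23 and 8.46 against 7.80, 7.32 and 7.64 (difference -0.67 ± 0.16, limma adjusted p = 0.0126). *Rab3d*, a granule Rab that osteoclasts use for post-Golgi vesicles, gave 10.83, 10.99 and 11.01 against 10.59, 10.50 and 10.39, and the difference was -0.45 ± 0.09 (limma adjusted p = 0.00655). Both genes had every *Ctsk-Cre;Ano1*fl/fl array below every control array. *Rab3a* was lower as well (-0.26 ± 0.06), but not with the mean of its probes (-0.020, adjusted p = 0.892), while *Rab26* was not well above background on any *Ctsk-Cre;Ano1*fl/fl array and at least 1.34-fold lower there, and it did not pass with normexp background correction (adjusted p = 0.0859). *Rab3b*, a synaptic vesicle Rab, was the exception at 3.72, 4.17 and 3.22 against 5.23, 4.47 and 5.06, a difference of 1.21 ± 0.29. Only 1 of its 3 control arrays was well above background, and with normexp background correction its difference was 0.29. *Rab37* (0.25) did not pass. These falls went with those of the mast cell and basophil, neutrophil and platelet markers given above, in which the granule proteases *Cpa3* and *Mcpt8* differed by -3.01 ± 0.60 and -2.53 ± 0.62, and *Mcpt4*, *Tpsab1* and *Cma1* were below background on all 6 arrays. Their part in the Rab falls was not tested.

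Constitutive transport to the cell surface gave 1 higher and 2 lower of 4. *Rab10*, which carries vesicles from the Golgi and from recycling endosomes to the plasma membrane, was 0.82 ± 0.10 higher (limma adjusted p = 0.00101). The closely related *Rab8a* and *Rab8b*, with overlapping routes, differed by -0.65 ± 0.18 and -0.41 ± 0.10, and *Rab13*, of epithelial junctions, by -0.20 without passing. *Rab8a* did not pass without control replicate 1 or 2 (adjusted p = 0.0766 and 0.0656), *Rab8b* not without *Ctsk-Cre;Ano1*fl/fl replicate 1 or 3 (adjusted p = 0.0514 and 0.0542), and their second probes differed by -0.11 and -0.016 without passing. Of the pair that serve cilia, *Rab23* differed by 0.74 ± 0.20 and *Rab28* by -0.23 ± 0.07, and each lost its call without single arrays, with an adjusted p of up to 0.0673 and 0.0886. *Rab19* (0.14) and *Rab40c* (-0.026) did not pass. Of the 5 untested members, *Rab3c*, *Rab9b*, *Rab17* and *Rab25* were below background throughout, and *Rab40b*, a subunit of a ubiquitin ligase, read 1.72, 1.98 and 1.70 against 4.09, 4.19 and 3.85 with only 1 array well above background.

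Closely related Rab genes moved together in some sets and apart in others. Among 17 sets of relatives with at least 2 tested members, all members passed in 1 direction in 8, and members passed in opposite directions in 5. The 8 sets were *Rab2a* with *Rab2b*, *Rab4a* with *Rab4b*, *Rab6a* with *Rab6b*, *Rab8a* with *Rab8b*, *Rab22a* with *Rab31*, *Rab27a* with *Rab27b*, *Rab32* with *Rab38* and *Rab34* with *Rab36*. Opposite calls were found for *Rab39* with *Rab39b*, *Rab7* with *Rab7b*, the 3 tested *Rab3* genes, the *Rab5* genes, and *Rab8a* with *Rab10*. Among members measured on all 6 arrays, 14 sets remained to compare: opposite calls were left in 3, without those of *Rab39b* and *Rab3b*, and calls in 1 direction in 8, with *Rab3a* and *Rab3d* in place of *Rab34* and *Rab36*. Differences between relatives were not themselves tested. Whether probes of relatives bind each other's RNA was not tested.

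**Figure D3:**
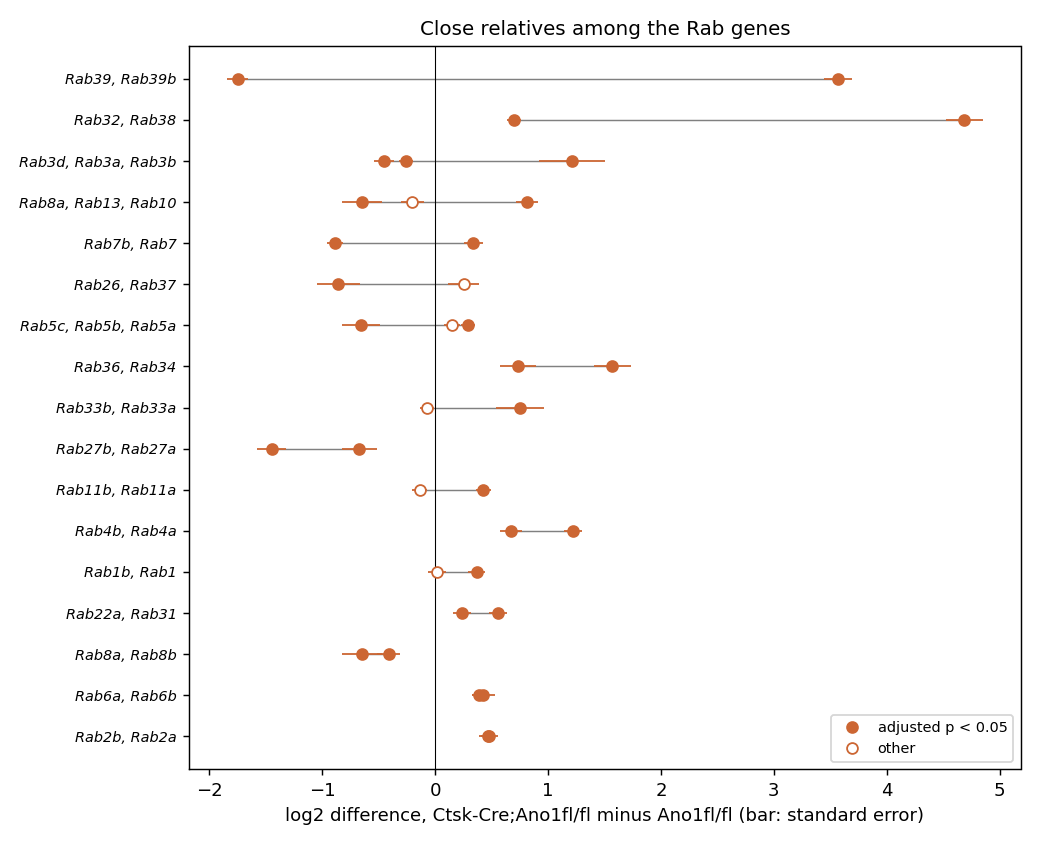
Log2 difference (*Ctsk-Cre;Ano1*fl/fl minus *Ano1*fl/fl) with its standard error for the tested members of 17 sets of related Rab genes; filled points have an adjusted p under 0.05, and labels name the members in order from the lowest difference. The line is widest for *Rab39* with *Rab39b*, from -1.75 to 3.57, where the upper value rests on control arrays below background, and short for *Rab2a* with *Rab2b* and *Rab6a* with *Rab6b*.

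By the array's mm9 probe positions, 3 pairs of neighbouring members lay within 1 Mb of each other. *Rab7b* (chr1:133609265-133609324) and *Rab29* (chr1:133769401-133769460) lie 160 kb apart and were both lower. *Rab43* and *Rab7* on chromosome 6, 211 kb apart, and *Rab31* and *Rab12* on chromosome 17, 842 kb apart, were both higher. The probes lay at chr7:95639879-95639938 for *Rab38*, chr7:99985062-99985121 for *Rab30*, chr9:53492468-53492527 for *Rab39* and chrX:72818182-72818241 for *Rab39b*.

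The 113 probes were also taken one by one, since a gene with several probes can report several transcript parts. Of the 98 that could be tested, 34 were higher (21.8% of all 31848 tested probes were), 22 were lower (30.6% of all) and 42 did not pass. Among 30 genes with several tested probes, 21 had all probes in 1 direction and 9 had both directions. At least 2 probes passed in the same direction, with none against, for 10 genes, among them *Rab4a* (1.22 and 1.39), *Rab27b* (-1.44 and -1.86), *Rab44* (-1.35 and -1.24) and *Rab7b* (-0.89 and -1.11). In 11 genes 1 probe alone passed, as for *Rab15*, whose second and dimmer probe differed by 0.48 ± 0.48. In 3 genes probes passed in opposite directions: *Rab1* (0.37, 0.46 and -0.84), *Rab12* (0.30 and -0.56, with 2 more that did not pass) and *Rab2b* (0.47 and -0.28). For these 3 genes the direction depends on the probe. *Rab9*, *Rab14* and *Rab42* did not pass by their brightest probe, while a dimmer probe was higher for *Rab9* (0.25) and lower for *Rab14* (-0.93) and *Rab42* (-0.33).

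**Figure D4:**
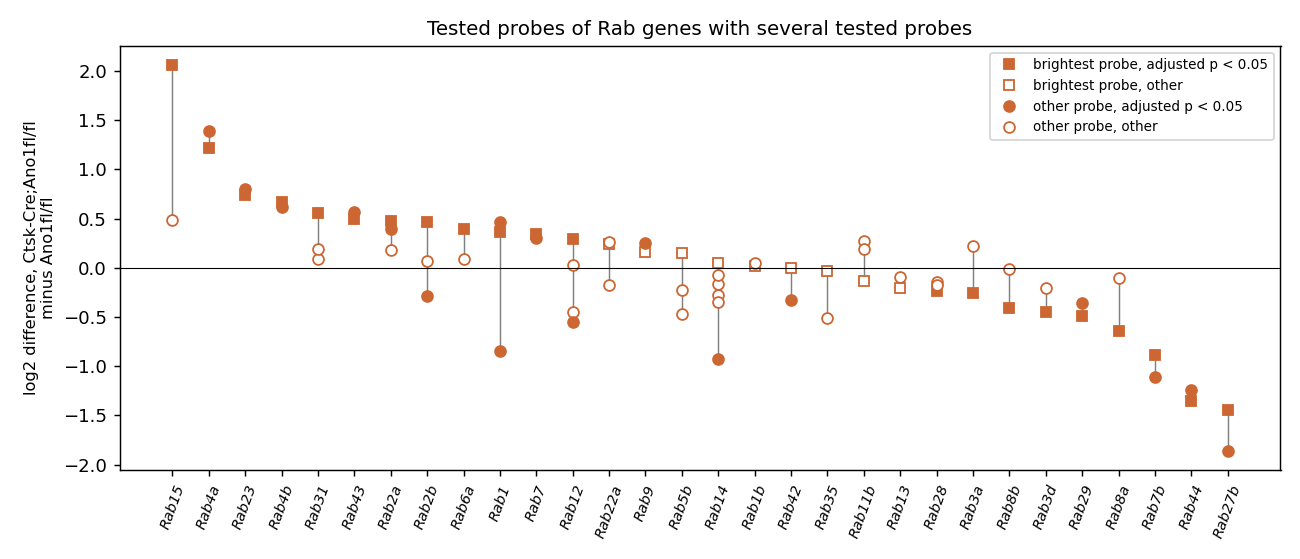
Log2 difference (*Ctsk-Cre;Ano1*fl/fl minus *Ano1*fl/fl) of every tested probe for the 30 Rab genes with several tested probes, ordered by the brightest probe (squares); circles are the other probes, filled symbols have an adjusted p under 0.05, and a grey line joins the probes of a gene. Probes of *Rab4a*, *Rab27b*, *Rab44* and *Rab7b* lie close together, and filled symbols stand on both sides of 0 for *Rab1*, *Rab12* and *Rab2b*.

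The partners of the Rab proteins were followed in 5 lists with 208 genes, of which 196 were tested. In all 65 were higher, or 33.2% against 23.4% of all genes, and 36 were lower, or 18.4% against 29%; in either direction 51.5% passed, against 52.4%. A separate fit was limited to genes above background on all 6 arrays, with its own adjustment. In it 63 of 191 partners were higher and 38 lower, where 22.2% of all genes so measured were higher and 29.5% lower. The shares of 23.4% higher and 29% lower over all genes apply to each list below. Of 11 genes for GDI, escort and prenylation, 4 were higher and 2 lower. Those higher included the transferase subunits *Rabggta* (0.41 ± 0.12) and *Rabggtb* (0.53 ± 0.07) and *Rabif* (0.21), and those lower were the escort protein *Chml* (-0.68 ± 0.07) and the protease *Zmpste24* (-0.30).

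Exchange factors were split evenly, with 14 higher and 14 lower of 45. *Dennd5b* (2.45 ± 0.32, limma adjusted p = 0.00128) and *Rin1*, which activates Rab5 (1.45 ± 0.18, limma adjusted p = 0.00108), were higher, and *Dennd2c* was lower (-1.11, limma adjusted p = 3.61e-04). GTPase-activating proteins were higher for 11 and lower for 7 of 37, with *Sgsm1* (2.13 ± 0.30, 2 of 3 control arrays above background) and *Usp6nl*, which acts on Rab5 (1.28 ± 0.08), at one end and *Tbc1d8* (-1.30 ± 0.13) and *Tbc1d4*, which acts on Rab10 (-1.02 ± 0.09), at the other. *Sgsm1* did not pass with the mean of all probes (0.79, limma adjusted p = 0.0729). It is counted among the 11 higher, though it entered only through its brighter genotype and so had to differ.

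Effectors gave 28 higher and 9 lower of 69 tested. Among these 28 are *Sytl2*, *Sytl5*, *Rims2* and *Rph3al*. They entered only through the genotype in which they were brighter, so they had to differ. Of 5 synaptotagmin-like genes, whose proteins bind Rab27 on secretory vesicles, *Sytl2*, *Sytl3* and *Sytl5* were higher, *Sytl4* was lower and *Sytl1* (-0.053) did not pass. *Sytl2* was below background on every control array, at 2.18, 1.86 and 2.04, and reached 5.78, 5.25 and 5.49 in *Ctsk-Cre;Ano1*fl/fl, at least 2.91-fold higher. *Sytl3* was 1.52 ± 0.31 higher and *Sytl5*, with 1 of 3 control arrays well above background, 1.90 ± 0.16 higher. *Sytl4*, their relative in granule docking, gave 6.65, 6.99 and 7.14 against 5.63, 5.68 and 5.36, a difference of -1.37 ± 0.15 (limma adjusted p = 7.37e-04). *Rims2*, a Rab3 effector of the synaptic release site, was below background on every control array as well and at least 2.04-fold higher. *Sytl2*, *Sytl5*, *Rims2* and *Rph3al*, like *Sgsm1* above, were tested only through the *Ctsk-Cre;Ano1*fl/fl arrays. Of 34 SNARE genes 8 were higher and 4 lower, and none differed by more than 2-fold; *Vti1a* (0.74 ± 0.08) rose most and *Vamp1* (-0.92 ± 0.16) fell most.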

How the data were processed

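The authors read each array with Agilent Feature Extraction 10.7.1.1, and the deposited scanner files hold linear spot intensity per channel, background-subtracted in the processed signal; probe positions are mm9. The deposited series matrix equals the median spot intensity, with a largest difference of 0. Outlier spots were dropped, the processed signals were log2 transformed and quantile normalized as the methods name, and repeat spots of 1 probe were averaged; 14 probes lacked a value on some array and were not used. A probe counted as above background on an array if at least 0.5 of its spots were. Each gene name was represented by its brightest probe. Groups of 3 arrays from 3 mice were compared with limma 3.58.1 in R 4.3.3, with Benjamini-Hochberg adjustment over every tested gene, after a test on simulated data. Python 3.11.15 with pandas 2.3.3 and matplotlib 3.10.9 extracted the signals and drew the plots. Where a group was below background, each of its arrays was set to its dimmest clearly detected probe or the probe's own value if higher, so the fold is a lower limit. All 6 arrays lay on 1 slide with 1 scan, and their number limits precision.

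The members and all lists (roles, relatives, partners, 11 marker lists) were chosen with earlier results of these data known. Values per array were given for Rab genes past an adjusted p of 0.05 and 2-fold, and for those past 0.05 among *Rab7*, *Rab3d*, *Rab27a*, *Rab32*, *Rab38*, *Rab44*, *Rab5a*, *Rab5c*, *Rab11a* and *Rab13*, plus a few relatives chosen after their values were seen (*Rab7b*, *Rab36*, *Rab40b*, *Sytl2*, *Sytl4*, and other synaptotagmin-like genes); in each partner list the 2 largest rises and 2 largest falls past 2-fold were named, with some partners under 2-fold added afterwards. The value of 1 partner gene is not reported here. Alternatives were 75th percentile scaling, normexp (offset 50), matrix values, no filter, a filter on all 6 arrays, the mean of all probes, single probes, trend and robust settings, the methods' t-test, a replicate block and leaving out each array. Promoters are from RefSeq; no mm9 gene models were used, so exons and UTRs are not given.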

Additional observations from a re-analysis of the deposited data

How the results depend on the processing

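With 1 value per gene and an adjusted p under 0.05, counts of Rab genes moved by at most 1.5 times under every alternative run. Between 20 and 27 were higher, 10 to 14 lower, 5 to 8 higher by more than 2-fold and 2 or 3 lower by more than 2-fold. Leaving out single arrays gave 24 to 26 higher and 10 to 12 lower. The methods' t-test gave 29 higher and 14 lower before and 24 higher and 11 lower after Benjamini-Hochberg adjustment. Rab probes that were lower numbered 22, against 13 with 1 probe per gene. Of the 40 Rab genes past the threshold, 21 kept their call under every alternative run with 1 value per gene in which they were tested, and the other 19 lost it or changed sign under at least 1, 3 of them with a change of sign. By single probes, 11 of the 21 had another tested probe, and for *Rab15* (0.48, adjusted p = 0.428), *Rab2a* (0.18, adjusted p = 0.127) and *Rab3d* (-0.21, adjusted p = 0.255) it did not pass. Of the 10 with more than 2-fold differences, 9 kept their call under those alternatives wherever they were tested, *Rab15* not by its second probe, and *Rab3b* lost it in the methods' t-test (adjusted p = 0.0565). *Rab39b*, which entered only through *Ctsk-Cre;Ano1*fl/fl and had to differ, is among these 9 and among the 21. The other genes that entered through 1 genotype, *Rab3b*, *Rab36* and *Rab26*, are among the 19. Sizes near background were less stable: with normexp, *Rab39b* fell to 0.71, *Rab3b* to 0.29, *Rab15* to 1.20 and *Rab30* to 2.20. With the mean of all probes *Rab34*, whose second probe was below background, fell to 0.78 and *Rab27b* was at -0.94.

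Signs turned for 8 genes with the mean of all probes: *Rab36* (-0.19), *Rab1* (-0.0044), *Rab12* (-0.17), *Rab5b* (-0.18), *Rab14* (-0.29, which then passed), *Rab42* (-0.16), *Rab40c* (0.25) and *Rab11b* (0.11). With 75th percentile scaling signs turned for *Rab14* (-0.046), *Rab1b* (-0.091) and *Rab42* (-0.059), with the series matrix *Rab1b* (-0.0035) and with normexp *Rab42* (-0.017). Without single arrays *Rab1b* ranged from -0.040 to 0.066, *Rab42* from -0.15 to 0.12 and *Rab40c* from -0.060 to 0.0060. The cause was not tested. Single arrays also ended the calls of *Rab33a* (adjusted p up to 0.0776), *Rab22a* (up to 0.123), *Rab6b* (0.0525) and *Rab12* (0.0532). With 75th percentile scaling the median difference was -0.12 in place of -0.059 over all genes and 0.18 in place of 0.25 over Rab genes.

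Arrays with the same replicate number had correlations of their deviations of 0.0044, -0.062 and -0.081. For arrays with different numbers these ranged from -0.12 to 0.18. Whether the mice were paired cannot be told from such values. With the number as a replicate block, 24 Rab genes were higher and 10 lower, and 7 and 3 by more than 2-fold.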
